A study of Mus musculus with 4 samples.

Results

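The genes described here are 9 widely used markers of endoderm, namely Sox17, Sox7, Gata4, Gata6, Foxa1, Foxa2, Afp, Ttr and Apoa1, among the 22180 genes measured. They were chosen by symbol. Earlier results of these data were known at the time, among them a gap between the day 7 replicates in endoderm genes. All 9 were found, each on a single probe set that names no other gene, so the rule of taking the brightest probe set of a gene had no effect on them. The samples were aggregates of wild-type mouse embryonic stem cells collected on day 4 (2 arrays) or day 7 (2 arrays) of culture in a matrigel-containing medium that drives retinal differentiation. Both days came from the same line, Rx-GFP, which was made from the 129/Ola line EB5 and has GFP inserted under the promoter of the eye gene Rx (Rax). No other treatment or genotype enters the comparison, which sets day 7 against day 4. The labels do not say whether replicates 1 and 2 were separate cultures, so p-values speak for the spread among these arrays alone, and that spread may be technical.

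Endoderm is the germ layer of the gut, liver, pancreas and lung, and the yolk sac carries an endoderm of extraembryonic origin, the visceral and parietal endoderm. Transcription factors of the GATA, SOX and FOXA families set up these tissues, and visceral endoderm and fetal liver then secrete carrier proteins such as alpha-fetoprotein, transthyretin and apolipoproteins. Several of these genes are also used elsewhere: Foxa1 and Foxa2 in the floor plate of the neural tube, Ttr in the choroid plexus and the retinal pigment epithelium, and Gata4, Gata6, Sox7 and Sox17 in the heart or blood vessels. The RNA came from whole aggregates, in which fewer cells of a type and less RNA per cell cannot be told apart.

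Sox17 was the only marker of the 9 whose change between the days passed the test. It rose 1.71-fold by day 7, while 8 of 9 markers were not called and 0 were called lower. A gene was called at a limma p-value under 0.05 after Benjamini-Hochberg adjustment over all 22180 genes, and 10.5% of all genes were called, 6.15% higher and 4.33% lower. At an unadjusted limma p under 0.05 there were 3 of 9 markers (Sox17 higher, Afp and Ttr lower), against 23.1% of all genes. The median difference, day 7 minus day 4, was -0.06 on the log2 scale for the 9 markers and -0.0036 for all genes. The days did not overlap for 3 of the 9, Sox17 with both day 7 arrays above day 4, and Afp and Ttr with both below, and 50.8% of all genes had days that did not overlap. A log2 difference of 1 stands for a 2-fold change in normalized signal, and any residual background in the arrays shrinks the folds of weakly expressed genes. The mean signal of each of the 9 markers lay above the 25th percentile of all genes (log2 signal 4.60).

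**Figure D1:**
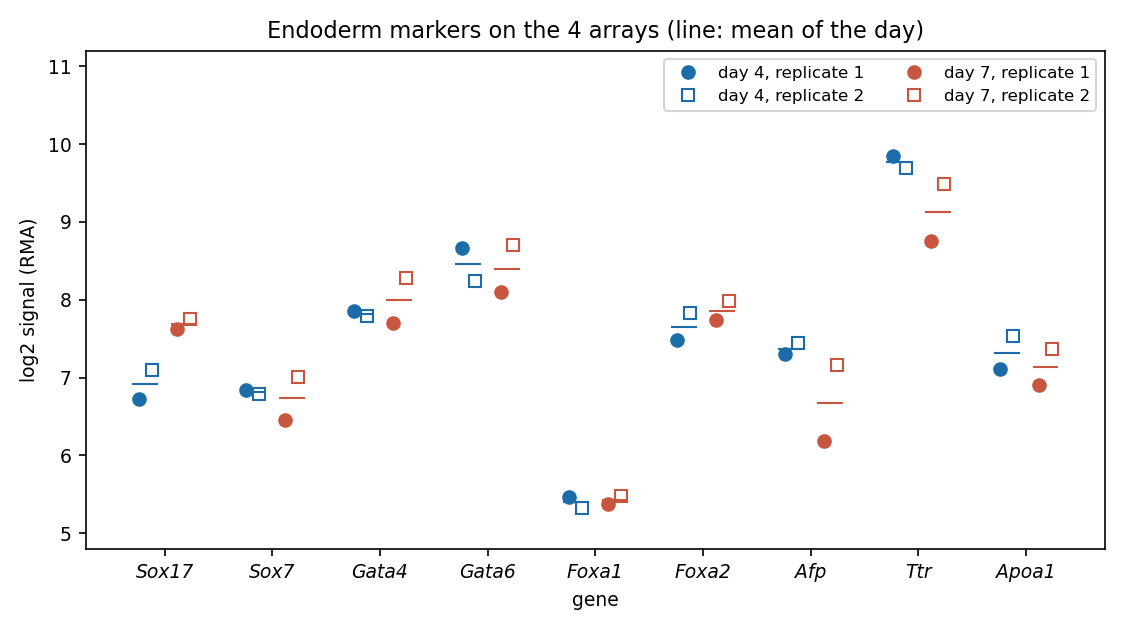
Log2 signal of the 9 endoderm markers (horizontal axis) on each of the 4 arrays, day 4 in blue and day 7 in red, replicate 1 as filled circles and replicate 2 as open squares, with a short line at the mean of each day. Both day 7 points of Sox17 lie above its day 4 points, both day 7 points of Afp and Ttr lie below theirs, and in all 9 genes the day 7 square is above the day 7 circle.

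Sox17 and Sox7 belong to the SoxF group of transcription factors; Sox17 is needed to form definitive endoderm, and Sox7 marks primitive and parietal endoderm. Sox17 (probe set 17221071) read 6.73 and 7.10 on the day 4 arrays and 7.62 and 7.76 on the day 7 arrays, in log2 signal. Its days did not overlap, and its replicates were closer to each other on day 7 than on day 4. The day means were 6.92 ± 0.26 and 7.69 ± 0.10 (SD, n = 2 each), a difference of 0.77 (SE 0.17, limma adjusted p = 0.0321). The call rested on each of 3 arrays: the adjusted p was 0.092 without day 4 replicate 1 (difference 0.58), 0.139 without day 7 replicate 1 (0.84) and 0.205 without day 7 replicate 2 (0.70). Sox7 (probe set 17301256) read 6.84 and 6.79 on day 4 and 6.46 and 7.01 on day 7. Its day 7 arrays stood on either side of day 4, and the difference of -0.08 (SE 0.20, limma adjusted p = 0.881) had a 95% interval from -0.56 to 0.39.

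Gata4 and Gata6 encode zinc finger factors that bind GATA sites and specify primitive endoderm. Gata4 (probe set 17307609) read 7.86 and 7.79 on day 4 and 7.70 and 8.28 on day 7. Gata6 (probe set 17348400) read 8.67 and 8.24 on day 4 and 8.10 and 8.70 on day 7. In both genes day 7 replicate 1 was the lowest array and day 7 replicate 2 the highest, so the days overlapped fully. The differences were 0.17 for Gata4 (SE 0.21, limma adjusted p = 0.729) and -0.06 for Gata6 (SE 0.24, adjusted p = 0.941). Their 95% intervals ran from -0.32 to 0.66 and from -0.62 to 0.51, which allow a change between the days of up to 1.58-fold in Gata4 and 1.53-fold in Gata6.

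Foxa1 and Foxa2 encode forkhead factors that open chromatin at gut and liver genes; Foxa2 also acts in the node and the floor plate. Foxa1 (probe set 17281337) read 5.47 and 5.33 on day 4 and 5.37 and 5.47 on day 7, the narrowest spread of the 9 markers (0.15 between the highest and the lowest array). Its mean signal was the lowest of the 9, at the 38th percentile of all genes and under their median (log2 signal 6.29). Foxa2 (probe set 17392561) read 7.48 and 7.82 on day 4 and 7.74 and 7.98 on day 7. The days overlapped in both genes. The differences were 0.03 for Foxa1 (SE 0.14, limma adjusted p = 0.958, 95% interval -0.31 to 0.36) and 0.21 for Foxa2 (SE 0.18, adjusted p = 0.585, 95% interval -0.21 to 0.63).

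Afp, Ttr and Apoa1 encode secreted proteins: alpha-fetoprotein, the main serum protein of the fetus, transthyretin, which carries thyroid hormone and retinol-binding protein, and apolipoprotein A-I of high-density lipoprotein. Afp (probe set 17438903) read 7.30 and 7.44 on day 4 and 6.19 and 7.16 on day 7. Ttr (probe set 17348833) read 9.84 and 9.69 on day 4 and 8.76 and 9.49 on day 7. In both genes day 7 lay below day 4, with replicate 1 far below and replicate 2 close to the day 4 values. Afp differed by -0.70 (SE 0.29, limma adjusted p = 0.214, 95% interval -1.39 to -0.0049) and Ttr by -0.64 (SE 0.24, adjusted p = 0.163, 95% interval -1.21 to -0.07). Neither was called.

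The day 7 array that was left out changed the size of both differences. Without day 7 replicate 2 the difference was -1.18 for Afp (limma adjusted p = 0.0323, a call) and -1.004 for Ttr (adjusted p = 0.054). Without day 7 replicate 1 it was -0.21 for Afp (adjusted p = 0.749) and -0.28 for Ttr (adjusted p = 0.643). In these fits 1 sample stood for day 7 and was assumed to vary like the day 4 samples. Apoa1 (probe set 17516901) read 7.11 and 7.53 on day 4 and 6.90 and 7.37 on day 7, with days that overlapped and a difference of -0.19 (SE 0.21, adjusted p = 0.71, 95% interval -0.69 to 0.32).

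**Figure D2:**
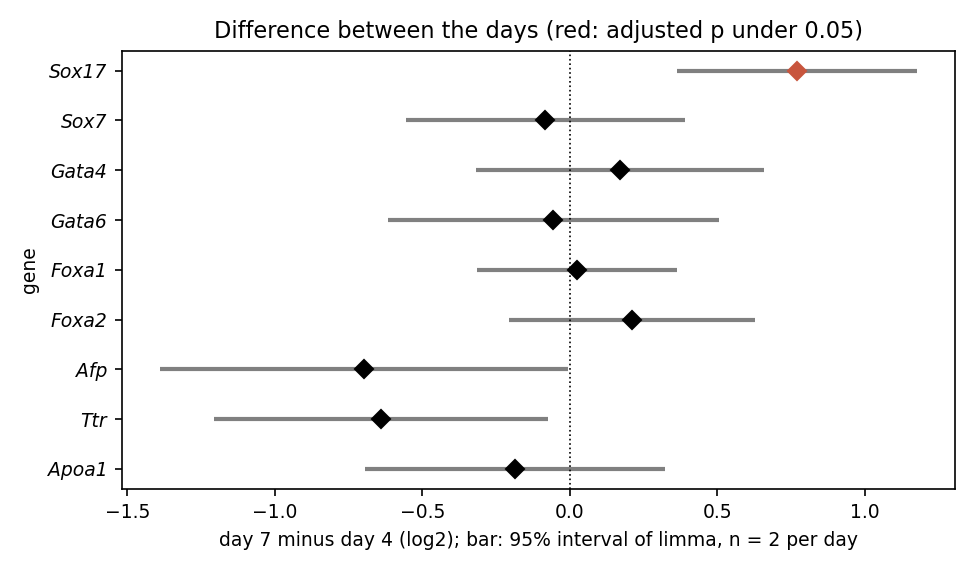
Day 7 minus day 4 difference in log2 signal for the 9 endoderm markers, with bars for limma's 95% interval (n = 2 per day) and red for an adjusted p under 0.05. Sox17 alone is red, at 0.77; the bars of Afp and Ttr end just below 0, and the bars of the other 6 genes cross it.

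RefSeq promoter entries (build GRCm38.p6) were matched for 4 of the 9 markers, with 6 start sites in all, 3 of them of Foxa2. The 250 bases before each start were searched on both strands for core motifs of the 3 transcription factor families among the markers. The forkhead motif was TGTTTAC or TGTTTGC, the GATA motif AGATAA or TGATAA, each also with G as its last base, and the SOX motif AACAAT or AACAAA. The forkhead motif was found before Afp, Apoa1 and Foxa1 and in 7.29% of all 32851 promoters. The 3 Foxa2 promoters had no forkhead match. The 3 promoters with a forkhead match are shown. Each runs 5′ to 3′ along its gene and ends at the base before the start, with forkhead matches in capitals.
Afp, chr5:90490464-90490713, plus strand: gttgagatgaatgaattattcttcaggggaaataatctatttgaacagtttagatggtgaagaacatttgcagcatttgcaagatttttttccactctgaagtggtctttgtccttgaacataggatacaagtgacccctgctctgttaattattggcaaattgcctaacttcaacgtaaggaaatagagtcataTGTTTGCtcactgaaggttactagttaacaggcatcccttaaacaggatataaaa
Apoa1, chr9:46228380-46228629, plus strand: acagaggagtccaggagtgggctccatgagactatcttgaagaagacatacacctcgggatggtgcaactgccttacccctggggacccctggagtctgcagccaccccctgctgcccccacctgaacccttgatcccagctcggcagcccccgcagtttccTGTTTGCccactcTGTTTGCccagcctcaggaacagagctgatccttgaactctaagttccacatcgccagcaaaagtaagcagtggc
Foxa1, chr12:57546112-57546361, minus strand: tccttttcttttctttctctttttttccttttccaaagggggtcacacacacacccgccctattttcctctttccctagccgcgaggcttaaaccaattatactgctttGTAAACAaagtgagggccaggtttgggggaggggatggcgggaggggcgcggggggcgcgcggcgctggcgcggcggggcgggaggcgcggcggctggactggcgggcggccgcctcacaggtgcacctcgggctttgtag
The Afp match began 55 bases before the start, the 2 Apoa1 matches 88 and 75 bases before it, and the Foxa1 match, which lies on the opposite strand, 141 bases before it. A SOX match 138 bases before the Foxa1 start overlapped the forkhead match. GATA motifs were found before Apoa1 (219 bases before the start) and before 1 of the 3 Foxa2 starts (183 bases), and in 26.5% of all promoters. SOX motifs, found before Foxa1 and before another Foxa2 start (171 bases), were in 24.9% of all promoters. A match describes the letters and not binding by a factor.

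The day 7 replicates differed in the same direction in every one of the markers. All 9 were higher in replicate 2 than in replicate 1, by 0.10 (Foxa1) to 0.97 (Afp) log2 and by 0.55 in the median, while 47.3% of all genes were higher in replicate 2 and the median over all genes was -0.014. The gap was at least 0.5 log2 in 5 of 9 markers (Afp, Ttr, Gata6, Gata4 and Sox7), against 5.14% of all genes. Only 0.379% of all genes had a wider day 7 gap than Afp, 1.22% a wider gap than Ttr, and 2.68% to 3.61% a wider gap than Gata6, Gata4 or Sox7. On day 4 replicate 2 was higher in 4 of 9 markers (51.5% of all genes), the median was -0.06, and 0 of 9 had a gap of at least 0.5 (9.64% of all genes). With 2 arrays per day the difference between replicates has no test. The markers were chosen with such a gap in endoderm genes known, so these counts are description only.

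**Figure D3:**
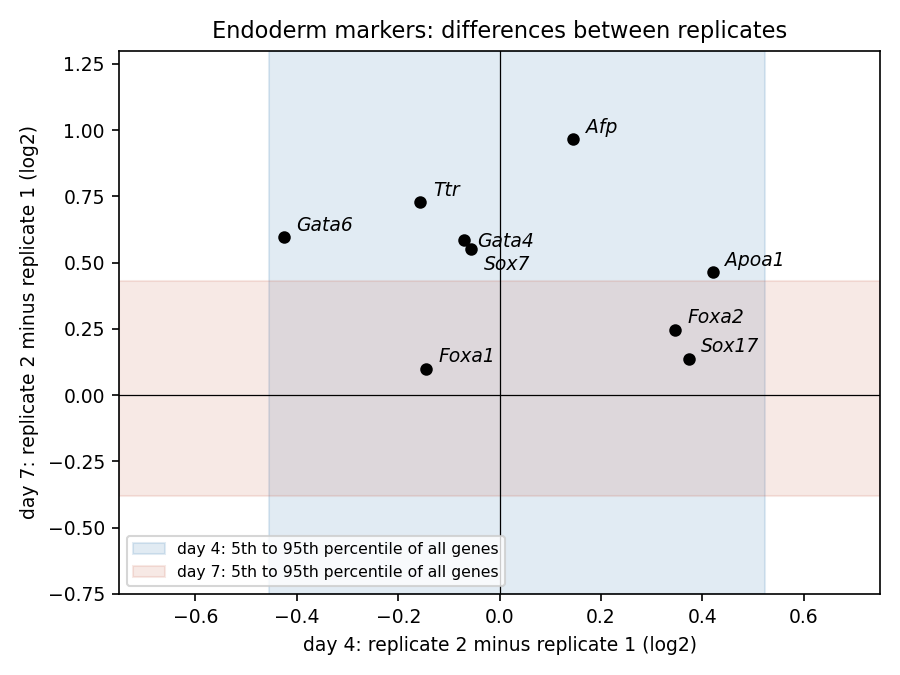
Replicate 2 minus replicate 1 in log2 signal for the 9 endoderm markers, day 4 on the horizontal and day 7 on the vertical axis, with shaded bands from the 5th to the 95th percentile of all genes on each day. All 9 points lie above 0 on the vertical axis, and Afp, Ttr, Gata6, Gata4, Sox7 and Apoa1 lie above the day 7 band (its upper edge is 0.43), while all 9 lie within the day 4 band.

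The markers' profiles over the 4 arrays were compared after each gene was centred on its own mean. Among the 9, Sox7 was nearest to Gata4 (root mean square distance 0.13 log2 over 4 arrays) and Gata6 (0.13), and Afp was nearest to Ttr (0.14). Sox17 lay farthest from Afp (0.79) and Ttr (0.76), and 0.48 from its relative Sox7. Afp had the widest range of the 9 (1.25 log2). Of all genes other than predicted models and short noncoding RNAs, those nearest to Afp were Zfp36l3 (distance 0.034), Liph (0.072), Arhgap29 (0.109), Rps23rg1 (0.109) and Hrh2 (0.116), over 4 arrays.

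Other genes of endoderm were taken from 4 lists that do not repeat the 9 markers. They held 75 measured genes, with 12 rises, 9 falls and 54 without a call (28% called, against 10.5% of all genes), with a median difference of 0.03. The number of calls was lower on leaving out day 7 replicate 1, day 7 replicate 2 or day 4 replicate 1. This held both among these 75 genes and over all genes.

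Among 22 other genes of primitive, visceral and parietal endoderm, 7 rose, 1 fell and 14 were not called. The share called was 36.4%, against 10.5% of all genes, and the median difference was 0.37. Stra6, the receptor for retinol-binding protein, rose 3.88-fold, from 6.73 ± 0.36 to 8.69 ± 0.87 (SD, n = 2, limma adjusted p = 0.0188). Pdgfra, a growth factor receptor of primitive endoderm and of mesenchyme, rose 3.21-fold (adjusted p = 0.00198), and Plat, a plasminogen activator, rose 2.24-fold (adjusted p = 0.00977). With day 7 replicate 1 or 2 left out, Plat had an adjusted p of 0.082 or 0.0683. Stra6 had a difference of 1.34 without day 7 replicate 2 and 2.57 without day 7 replicate 1. Lrp2, the endocytic receptor megalin, fell 2.07-fold (adjusted p = 0.021). It was not called with day 4 replicate 2 left out (adjusted p = 0.052) or with day 7 replicate 1 left out (0.139). Stra6 and Lrp2 are also genes of the optic vesicle and the forebrain.

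The gap between the day 7 replicates was seen in this list as well: 20 of 22 genes were higher in replicate 2, with a median of 0.47, and 10 had a gap of at least 0.5. Chosen after their values were seen, 3 genes of the uptake machinery that visceral endoderm uses with Lrp2 showed it. Cubn, the receptor cubilin, read 10.75 and 10.23 on day 4 and 9.002 and 10.25 on day 7. Amn, its partner amnionless, read 8.01 and 7.45, then 6.88 and 7.42, and the adaptor Dab2 9.78 and 9.67, then 9.23 and 9.90. None of these 3 was called (limma adjusted p = 0.236, 0.22 and 0.772). As with Afp and Ttr, day 7 replicate 1 was the lowest array in each.

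Among 19 measured genes of a list made mainly of other plasma and lipid transport proteins, 1 rose, 0 fell and 18 were not called (5.26% called, against 10.5% of all genes). At an unadjusted limma p under 0.05 there were 4 (21.1%, against 23.1% of all genes), and the median difference was 0.01. The gene that rose was S100g, whose product is a calcium-binding protein inside cells of the gut and not a plasma protein, at 6.57-fold, from 5.12 ± 0.09 to 7.84 ± 0.34 (SD, n = 2, limma adjusted p = 0.000352). Its day 7 replicates ran the other way from the markers, 8.08 in replicate 1 and 7.60 in replicate 2. Apob, the apolipoprotein of lipoproteins made by yolk sac and liver, had the widest day 7 gap of the list, 7.01 and 8.36 against 7.93 and 7.59 on day 4 (adjusted p = 0.955). On day 7, replicate 2 exceeded replicate 1 in 14 of 19 genes, by 0.19 in the median. The mean signals of 7 of the 19, Alb, Fga, Fgb, Fgg, Serpina1a, Serpina6 and Fabp1, most of them products of mature liver, lay under the 25th percentile of all genes.

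Of the other definitive and gut endoderm genes, 20 were measured, of which 2 rose, 4 fell and 14 did not pass. The share called was 30%, against 10.5% of all genes, and the median difference was -0.07. Cxcr4, a chemokine receptor of definitive endoderm and of migrating neural cells, rose 5.64-fold (limma adjusted p = 0.000566), and the homeobox gene Prox1 1.89-fold (adjusted p = 0.00783, and 0.0857 without day 7 replicate 1). Cer1, a secreted Nodal and BMP inhibitor of anterior endoderm, fell 4.16-fold (adjusted p = 0.00156), and the epithelial adhesion gene Epcam 4.41-fold (adjusted p = 0.00106). Trh, the gene of thyrotropin-releasing hormone, fell 2.31-fold, from 11.23 ± 0.39 to 10.02 ± 0.55 (SD, n = 2, limma adjusted p = 0.0414). Its call was lost on leaving out day 4 replicate 1 (adjusted p = 0.117) or day 7 replicate 2 (0.206), and under a robust fit with an intensity trend (0.0513). Trh also had the widest day 7 gap of the list, 10.41 in replicate 1 and 9.64 in replicate 2. Of the 20 genes, 10 were higher in day 7 replicate 2, and the median gap was -0.05. Which cells of the aggregates the rises and falls of this list came from was not tested.

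Nodal and activin signalling, which induces definitive endoderm in the embryo, had 2 of 14 genes higher, 4 lower and 8 not called. The share called was 42.9%, against 10.5% of all genes, and the median difference was -0.06. Foxh1, the forkhead partner of activated SMADs, fell 9.33-fold, from 10.65 ± 0.17 to 7.43 ± 0.10 (SD, n = 2, limma adjusted p = 9.8e-05). The Nodal co-receptor Tdgf1 fell 3.65-fold (adjusted p = 0.00119) and the ligand Gdf3 2.05-fold (adjusted p = 0.0226; 0.161 if day 7 replicate 1 and 0.0959 if day 7 replicate 2 is dropped). Smad3, a signal transducer, rose 2.81-fold (adjusted p = 0.000998), and the activin receptor Acvr2a 2.23-fold (adjusted p = 0.00432, and 0.0507 without day 7 replicate 1). Acvr2a had the widest day 7 gap of the list, 9.19 and 8.93, and 7 of 14 genes were higher in replicate 2. The cells of the aggregates in which the genes of this list rose or fell were not tested either.

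**Figure D4:**
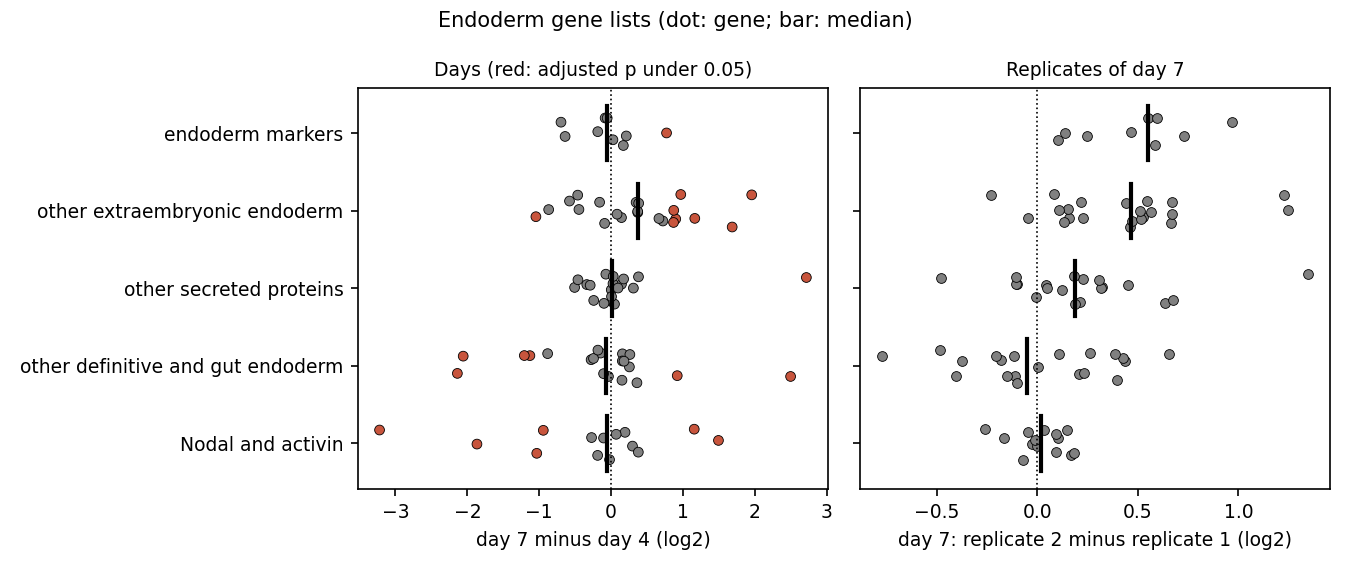
Genes of the 9 endoderm markers and of the 4 other endoderm lists (rows), with the day 7 minus day 4 difference on the left (red for an adjusted p under 0.05) and replicate 2 minus replicate 1 on day 7 on the right, in log2. Bars mark medians; on the right they stand at 0.55 for the markers and 0.47 for the other extraembryonic endoderm genes, and at -0.05 and 0.02 for the definitive endoderm and the Nodal lists.

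Markers of the tissue and of other cells that use some of the 9 genes were read beside these results. Eye field and neuroretina genes rose in 6 of 9 cases (66.7%, against 10.5% of all genes called), led by Nr2e1 (11.7-fold), Pax6 (11.1-fold) and Lhx2 (8.86-fold). Their day 7 replicates had a median gap of 0.03, with replicate 2 above replicate 1 in 5 of 9. Their gaps ran in both directions, and 5 of 9 (55.6%) were at least 0.5 log2, against 5.14% of all genes. That is the same count as for the 9 endoderm markers. On day 4 all 9 eye genes were higher in replicate 2 (51.5% of all genes were), by 0.53 log2 in the median. Of these day 4 gaps 5 of 9 were at least 0.5 log2, against 9.64% of all genes. Genes of the pigment epithelium, a tissue that also uses Ttr, had replicate 2 above replicate 1 on day 7 in 13 of 15 cases, by 0.44 in the median. The gap was at least 0.5 log2 in 6 of these 15 genes (40%). Their summed linear signal was 2611 and 2914 on the day 4 arrays, 2809 on day 7 replicate 1 and 4645 on replicate 2. Otx2, a gene of the eye field and forebrain too, made up 71.5% of the day 4 sums, and without it they were 756 and 819 on day 4, 1590 on day 7 replicate 1 and 3143 on replicate 2. Pmel, named after its values were seen, and Dct had the widest day 7 gaps of the list. In log2 signal Pmel read 7.62 and 10.01 on the day 7 arrays, and Dct 6.69 and 8.66. Pmel was not called (limma adjusted p = 0.137). Linear sums weigh such bright values most. The summed signal of the 9 endoderm markers was 2297 and 2223 on day 4, 1649 on day 7 replicate 1 and 2397 on replicate 2. Without Ttr, 38.6% of their day 4 sums, it was 1378 and 1398 on day 4 and 1215 and 1678 on day 7. Of the 15 pigment epithelium genes, 3 (Tyr, Tyrp1 and Rpe65) had mean signals under the 25th percentile of all genes, and the others lay above it. The part of pigment epithelium cells in the values of Ttr and of the other markers was not tested.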

How the data were processed

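The arrays measured total RNA on 4 samples, 2 per day, labelled with biotin after sense-strand cDNA synthesis. The authors deposited log2 values for every probe set of each array. The submitters' processing notes name RMA and Partek 6.5 as tools, and the settings are not given in the sources used here. RMA makes the arrays' distributions alike, so a shift shared by most genes would not show, and the number of arrays limits the precision. Array medians lay between 5.68 and 5.77, and replicates correlated across probe sets, which are not independent, with r = 0.986 (day 4) and 0.991 (day 7). Of 41345 probe sets, 23521 named exactly 1 gene in the platform annotation, 1814 several and 16010 none here; the probe set with the highest mean was used for each of 22180 genes.

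The difference of day 7 minus day 4 was fitted with limma 3.58.1 in R 4.3.3 (lmFit and eBayes, day as the only term, 2 residual degrees of freedom, two-sided), and tested on simulated data. The 9 markers and the gene lists were chosen with earlier results of these data known, among them a gap between the day 7 replicates in endoderm genes. All 9 markers were named. From each other list, called genes were named, up to 3 with the largest rise and 3 with the largest fall, with the gene of widest day 7 replicate gap in the definitive endoderm, secreted protein and Nodal lists, and the 5 genes nearest to the marker of widest range. As alternatives, arrays were dropped in turn, a block for the replicate number was added, arrays were centred on their medians or quantile-normalized again, genes under the 25th percentile of level were removed, the variance prior was given an intensity trend with robust estimation, and probe sets of a gene were averaged. No set test was run. Lists of floor plate, choroid plexus, cardiac and endothelial markers are given in the closing section.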

Additional observations from a re-analysis of the deposited data

How the results depend on the processing

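Over the 10 alternatives for each of the 9 markers, 78 of 90 values had the same direction and the same side of the threshold, 3 lost a call (Sox17), 1 gained one (Afp) and 8 changed sign. Leaving out 1 array each gave 0 to 1 endoderm markers called; the single call was Sox17 without day 4 replicate 2 and Afp, lower, without day 7 replicate 2, and there was 0 on dropping day 4 replicate 1 or day 7 replicate 1. The same settings gave 887 to 2500 calls over all genes and 12 to 21 among the other endoderm genes. The changes of sign were among values not called, with ranges of -0.36 to 0.19 for Sox7, -0.12 to 0.46 for Gata4, -0.35 to 0.24 for Gata6, -0.048 to 0.098 for Foxa1, -0.42 to 0.046 for Apoa1 and -0.75 to 0.60 for Apob over the arrays left out. The median of replicate 2 minus replicate 1 on day 4 was 0.020 after repeated quantile normalization in place of -0.06; the cause was not tested. On day 7 that median was 0.49 with centring and 0.53 with quantile normalization, with 9 of 9 markers higher in replicate 2 in both. With the replicate number as a block, Sox17 was again the 1 marker called (limma adjusted p = 0.019), with 23 other endoderm genes and 2770 genes in all; the deviations of same-numbered samples correlated with r = 0.186 across genes, and the labels do not say that the numbers pair the samples. With centring, quantile normalization, the filter, the intensity trend and the mean of probe sets, Sox17 was called and the other 8 markers were not. For the other named genes 305 of 330 values had the same direction and side of the threshold, 23 lost a call and 2 changed sign (Apob).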

Other observations

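Cells of the floor plate, choroid plexus, heart and vessels use some of the 9 markers. Of their other markers 33.3%, 16.7%, 23.1% and 15.4% were called, on 12 or 13 genes a list, against 10.5% of all genes. Of 12 floor plate and ventral midline genes measured, 3 rose, 1 fell and 8 were not called. The guidance ligands Slit2 and Slit1 rose 15.0-fold and 2.44-fold (limma adjusted p = 5.6e-05 and 0.0116, the second 0.0555 without day 7 replicate 2), and the Hedgehog target Gli1 rose 1.55-fold (adjusted p = 0.0471, and 0.0822 to 0.302 without each array in turn). Spon1, an adhesion protein of the floor plate, fell 2.60-fold (adjusted p = 0.00232). Of 12 choroid plexus genes 1 rose, 1 fell and 10 were not called: Lmx1a, a roof plate factor, rose 4.07-fold (adjusted p = 0.00172), and the bicarbonate transporter gene Slc4a5 fell 2.68-fold, from 7.74 and 7.74 to 5.86 and 6.78 (adjusted p = 0.0196, and 0.0582 without day 7 replicate 1).

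Of 13 cardiac mesoderm genes 2 rose, 1 fell and 10 were not called. Mef2c rose 2.75-fold (limma adjusted p = 0.00246, log2 difference 1.46, and 0.89 as the mean of its probe sets), Isl1, which also marks neurons, 2.63-fold (adjusted p = 0.0186, and 0.0818 without day 7 replicate 1), and the atrial myosin light chain gene Myl7 fell 2.88-fold (adjusted p = 0.00157). Of 13 endothelial genes 2 rose and 11 were not called, the VEGF receptor genes Flt1 (2.35-fold, adjusted p = 0.0132, and 0.0672 without day 7 replicate 2) and Kdr (1.92-fold, adjusted p = 0.0259, and 0.0553, 0.0505 and 0.148 without day 4 replicate 1, day 4 replicate 2 and day 7 replicate 2). Of the pigment epithelium genes 4 of 15 rose (26.7%, against 10.5% of all genes called). Dct (6.52-fold), Otx1 (4.96-fold) and Mitf (2.88-fold) were in the lead. The limma adjusted p of Dct was 0.0217, and its call was lost without day 4 replicate 1 (log2 difference 2.61). The log2 difference of Dct was 2.70 on all arrays, and 3.69 or 1.72 on dropping day 7 replicate 1 or 2. Day 7 replicate 2 was the higher one in 9 of 12 floor plate and 10 of 12 choroid plexus genes. It was also higher in 9 of 13 cardiac and 9 of 13 endothelial genes, against 47.3% of all genes. The medians of these lists, in turn, were 0.17, 0.25, 0.21 and 0.22 log2, the direction seen in the 9 endoderm markers, against -0.014 over all genes.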
